A study of Saccharomyces cerevisiae with 4 samples.

Results

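The Gag-Pol genes of the Ty1 and Ty2 retrotransposons of budding yeast were examined for peaks of the histone deacetylases Sir2 and Hst1. They were taken by systematic name, under a rule that uses no measured value, and comprise 41 genes, 31 of Ty1 and 10 of Ty2, among 6002 nuclear protein-coding genes of the R64 annotation. Sir2 is the catalytic subunit of the silencing complex that acts at telomeres, the silent mating loci and, in another complex, the ribosomal DNA, and Hst1 is its paralogue and works with the DNA-binding protein Sum1. The data come from ChIP-seq, in which DNA recovered with an immunoprecipitated (IP) protein is sequenced.

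The 3 peak lists used came from yeast in early log phase in rich glucose medium at 30 °C. All cells were crosslinked for 1 hour with 10 mM dimethyl adipimidate and for 1 hour more with 1% formaldehyde. The Sir2-HA IP came from strain LRY1926, in which Sir2 carries the HA tag, the Hst1-HA IP from strain LRY0558, in which Hst1 carries it, and the mock IP from the parental strain LRY1009, with no tag and the same antibody. The series also has a genomic input of LRY1009, which was not analysed here. The lists hold 159 Sir2, 692 Hst1 and 3 mock IP peaks. They give no reads, which leaves the depth behind each peak unknown. No IP has a replicate list, and the values below are descriptions with no test. All coordinates are sacCer3.

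Ty1 and Ty2 are long terminal repeat retrotransposons. Each element is transcribed into RNA that serves both as genome and as messenger: Gag forms the virus-like particle, and a translational frameshift extends it into the Gag-Pol polyprotein, which supplies protease, integrase, reverse transcriptase and RNase H. New Ty1 copies insert upstream of genes transcribed by RNA polymerase III, mainly tRNA genes, and Sir2 is known for limiting recombination among repeats of the ribosomal DNA. Copies of one family are near-identical, so a read of an IP library may be placed at the wrong copy. The sources used here do not give how reads with several matches were placed, or whether the strains carry the insertions of the reference.

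Sir2 peaks lay inside most of the Gag-Pol genes. At least 1 Sir2 summit, the position of highest signal in a peak, fell in 32 of the 41 genes, against 0.983% of all nuclear protein-coding genes (59 of 6002). Hst1 summits fell in 2 of 41, against 1.93% of all genes, and mock IP summits in 0 of 41, against 0.05%. The 59 genes with a Sir2 summit were the 32 Gag-Pol genes, 6 of the 39 other annotated genes that overlap one, and 21 genes elsewhere. Gag-Pol genes are long, with a most common length of 5269 bp in Ty1 and 5314 bp in Ty2 against a median of 1200 bp for all genes. Of the 304 other genes at least as long as the shortest of them (3468 bp), 2 had a Sir2 summit (0.658%) and 12 had an Hst1 summit (3.95%).

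The 41 genes held 57 of the 159 Sir2 summits (35.8%). Per length this was 2.68 summits per 10 kb, against 0.0338 per 10 kb in the rest of the genome more than 10 kb from chromosome ends, where 39 summits lay. Hst1 had 0.0941 per 10 kb in the genes and 0.543 per 10 kb in that remainder. The remainder includes the sequence between genes, so these values do not compare like with like. Counted inside genes only, Hst1 summits lay in 4.88% of the 41 genes and in 3.95% of the 304 other genes of such length. None of the 41 genes lay in the Sir2-rich outermost 10 kb of a chromosome. The nearest to an end was YHR214C-B, a Ty1 gene 13297 bp from the right end of VIII, and the median distance to an end was 259868 bp.

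**Figure D1:**
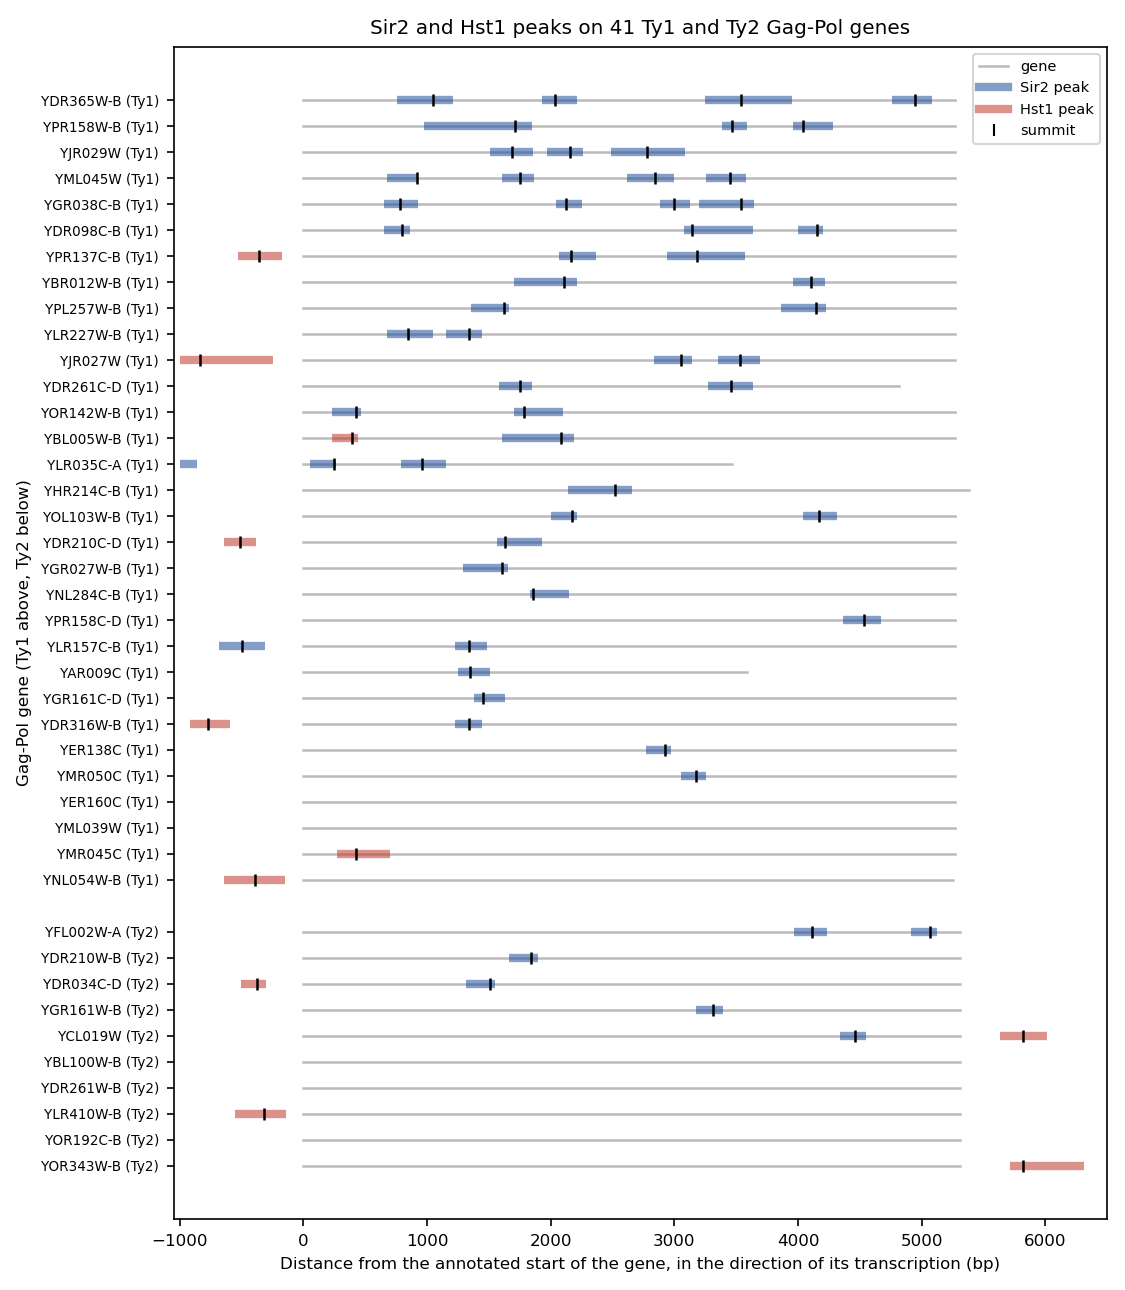
Peaks of Sir2 (blue) and Hst1 (red) on each of the 41 Gag-Pol genes (grey lines), with Ty1 above and Ty2 below, each sorted by the length covered by Sir2 peaks. The horizontal axis is the distance in bp from the annotated start in the direction of transcription, and black ticks are summits; Sir2 peaks lie inside 32 genes, and most Hst1 peaks lie outside them.

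The Sir2 peaks in these genes were weak. Their fold, the authors' enrichment at the summit over the local background of the peak caller, ran from 1.74 to 2.84 with a median of 2.11, and 1.74 was also the lowest fold of the whole list. The 63 Sir2 peaks within 10 kb of chromosome ends had a median fold of 5.53, and the 39 peaks elsewhere one of 2.58. The peaks in Gag-Pol genes took ranks 67 to 159 of 159 by fold, and 54 of the 57 lay under the list's median of 2.48. Of the 50 weakest Sir2 peaks, 38 were in these genes. Their −log10 q ran from 2.62 to 10.9 with a median of 4.74, against medians of 120 at chromosome ends and 13.5 elsewhere. Only 1 of the 57 peaks reached a −log10 q of 10, against 78 of all 159. They were also short, with lengths from 200 bp, the shortest in the list, to 877 bp. Their median length was 293 bp, and together they made up 7.49% of the bases in Sir2 peaks.

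**Figure D2:**
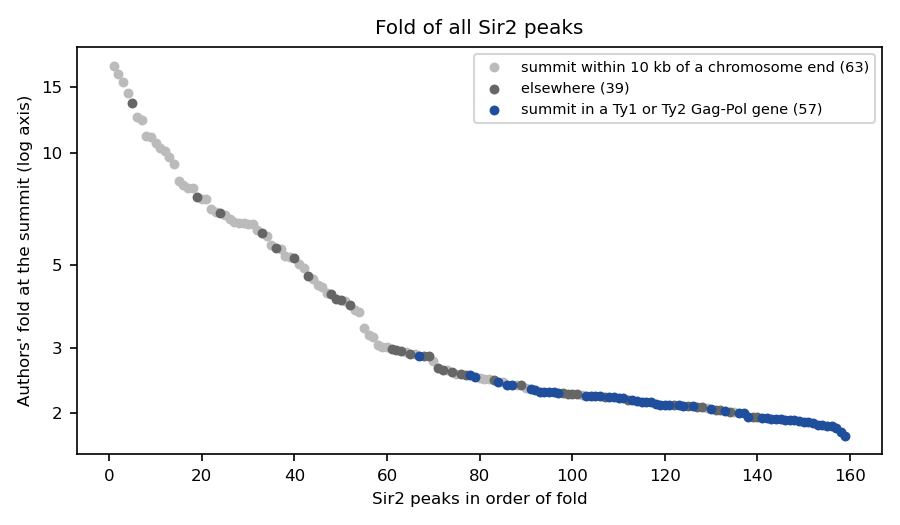
All 159 Sir2 peaks in order of the authors' fold (vertical log axis), with peaks in Gag-Pol genes in blue, peaks within 10 kb of chromosome ends in light grey and the other peaks in dark grey. The 57 peaks in Gag-Pol genes begin at rank 67 and take most of the lower end of the list.

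Sir2 summits were more frequent in Ty1 than in Ty2, a difference that was not tested. Of 31 Ty1 genes 27 held a Sir2 summit (87.1%, exact Clopper-Pearson 95% interval 70.2 to 96.4), and of 10 Ty2 genes 5 did (50%, interval 18.7 to 81.3). The intervals overlap, cover counting error only and treat the copies as independent, which near-identical sequences are not. Ty1 held 51 summits, or 3.20 per 10 kb, and Ty2 held 6, or 1.13 per 10 kb. Sir2 peaks covered 17666 bp of Ty1 genes, 11.1% of their length, and 1378 bp of Ty2 genes, 2.59%. The median fold was 2.12 in Ty1, from 1.74 to 2.84, and 1.90 in Ty2, from 1.78 to 2.20, so the Ty2 range lay within that of Ty1. The median peak length was 305 bp in Ty1 and 225.5 bp in Ty2. Restricting the list to peaks with a fold of at least 2 left 22 Ty1 genes and 1 Ty2 gene. A −log10 q of at least 10 left 1 Ty1 gene and 0 Ty2 genes.

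The number of Sir2 summits per gene went up to 4. Of the Ty1 genes, 4 had none, 12 had 1, 9 had 2, 3 had 3 and 3 had 4, and of the Ty2 genes 5 had none, 4 had 1 and 1 had 2. The 3 genes with 4 summits were YDR365W-B, YGR038C-B and YML045W, all of Ty1. YDR365W-B (IV, 1206997 to 1212265) had the greatest coverage, 1761 bp or 33.4% of its length, with folds of 2.22, 2.19, 2.14 and 2.22 at 1049, 2033, 3542 and 4950 bp from its start. In YGR038C-B (VII, 562199 to 567467) the summits lay 780, 2126, 2999 and 3543 bp from the start, with folds of 1.89, 2.09, 1.96 and 2.10, and peaks covered 22.4%. In YML045W (XIII, 184461 to 189729) they lay at 917, 1755, 2840 and 3453 bp, with folds of 1.85, 1.94, 1.85 and 2.29, and covered 23.0%. In these 3 genes the peaks were thus spread along the element, and none spanned it. Among all genes with several summits, neighbouring ones were 472 to 2530 bp apart, with a median of 1007 bp.

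YPR158W-B (XVI, 844709 to 849980) had 3 summits and the longest peak in any of the genes, 877 bp, with a fold of 2.38 at 1712 bp from the start. YJR029W (X, 478344 to 483612) also had 3, with folds of 2.28, 2.28 and 1.91, over 23.5% of its length. YDR098C-B (IV, 645858 to 651126) had 3, with folds of 2.38 and 2.27 in its later part and 1.74 at 795 bp from the start, the weakest Sir2 peak of the list. So strong and weak summits, by the measure of these genes, stood side by side in 1 copy.

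The 10 genes with the highest Sir2 fold, all of Ty1, reached values of 2.28 to 2.84. First was YBR012W-B (II, 259869 to 265140), where a 267 bp peak, II, 263825 to 264091, reached a fold of 2.84 at 4103 bp from the start. This was the peak with the −log10 q of 10.9. Its other summit, 2109 bp from the start, had a fold of 2.31. YPR137C-B (XVI, 805001 to 810269) followed with 2.53 in a 631 bp peak at XVI, 806697 to 807327, and 2.21 at its other summit. These top values belong to peaks ranked 67 and 78 of the list.

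Next came YLR035C-A (XII, 215440 to 218907), the shortest of the genes, with a fold of 2.49 and, 243 bp from its start, a further summit of 1.93. Outside the gene, 1001 bp before its start, lay another Sir2 summit with a fold of 2.02. YHR214C-B (VIII, 543964 to 549346), the longest at 5383 bp, had 1 summit with a fold of 2.43. The others in the order of their highest fold were YDR098C-B, YPR158W-B, YGR161C-D (2.31), YML045W, YAR009C (2.28) and YJR029W. YAR009C (I, 160597 to 164187), annotated with 3591 bp, and YLR035C-A were thus among the 10 although their annotated lengths are much below the most common one. Which part of the element these 2 annotated genes span was not examined. Their positions from the start may therefore not match those of the longer genes.

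Each of the 10 Ty2 genes is 5314 bp long, and 5 had a Sir2 summit. YGR161W-B (VII, 811738 to 817051) had the highest fold of them, 2.20, at 3313 bp from its start. YCL019W (III, 85102 to 90415) had 2.00 at 4462 bp, and YDR034C-D (IV, 514043 to 519356) had 1.85 at 1505 bp. YDR210W-B (IV, 872112 to 877425) had 1.82 at 1840 bp. YFL002W-A (VI, 138204 to 143517), the only Ty2 gene with 2 summits, had 1.95 at 5068 bp and 1.78 at 4110 bp. All 6 summits ranked from 110 to 158 in the Sir2 list.

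Sir2 summits were absent from 9 genes, and in these no Sir2 peak covered a single base. They were the Ty1 genes YER160C (V, 492856 to 498124), YML039W (XIII, 196628 to 201896), YMR045C (XIII, 357359 to 362627) and YNL054W-B (XIV, 519456 to 524706), and the Ty2 genes YBL100W-B (II, 29935 to 35248), YDR261W-B (IV, 981462 to 986775), YLR410W-B (XII, 941483 to 946796), YOR192C-B (XV, 704419 to 709732) and YOR343W-B (XV, 970578 to 975891). Their lengths were 5251 to 5314 bp, so none was one of the short annotated genes. Since read placement among copies is uncertain, a gene without a peak is not shown to lack Sir2.

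Of the remaining Ty1 genes, YBL005W-B, YDR210C-D, YDR316W-B, YER138C, YGR027W-B, YLR157C-B, YMR050C, YNL284C-B and YPR158C-D had 1 summit each, with folds of 1.86 to 2.22. YDR261C-D, YJR027W, YLR227W-B, YOL103W-B, YOR142W-B and YPL257W-B had 2 each, with a highest fold per gene of 2.10 to 2.23. Coverage by Sir2 peaks in the 32 genes with a summit went from 3.87% in YMR050C to the 33.4% of YDR365W-B, with a median of 9.39%.

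Along the element, Sir2 summits were most frequent in the part from 30 to 40% of the gene. Positions run from the annotated start in the direction of transcription, which the letter W or C of the systematic name gives, and the terminal repeats mostly lie outside the gene. In Ty1 the median position was 40.3% (2126 bp from the start), with the middle 50% of summits between 30.6% and 63.0% and the extremes at 7.01% and 93.9%. In steps of 10% of the gene from start to end, Ty1 held 2, 5, 5, 12, 6, 6, 7, 6, 1 and 1 summits. The first 10% and the last 20% of the gene thus held few summits. In Ty2 the 6 summits lay between 28.3% and 95.4%, with a median of 69.8%.

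The later Ty2 position rests on 6 summits. The 95% interval of the median was 28.3 to 95.4% in Ty2 and 33.8 to 55.5% in Ty1 (from order statistics, with summits taken as independent), so the values overlap. The Ty1 median also moved with the strength of the peaks, to 56.7% among peaks with a fold of at least 2. Over both families, the 32 summits in the first 50% of the gene had a median fold of 2.03, and the 25 in the second 50% had one of 2.14. Their ranges, 1.74 to 2.49 and 1.78 to 2.84, overlapped almost completely.

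**Figure D3:**
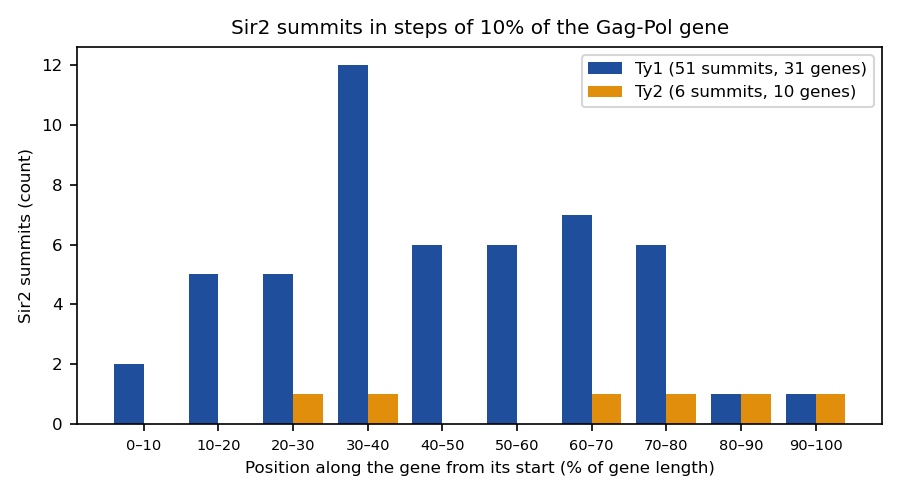
Number of Sir2 summits in each 10% of the Gag-Pol gene, from the annotated start (left) to its end (right), for Ty1 (blue, 51 summits in 31 genes) and Ty2 (orange, 6 summits in 10 genes). Ty1 has its highest count, 12, from 30 to 40%, and 1 summit in each of the last 2 steps.

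Some Ty1 copies had Sir2 summits at nearly the same place. In the 28 Ty1 genes of at least 5000 bp there were 46 summits, and 30 of them (65.2%) lay within 50 bp of a summit in another copy, with a median distance of 21.5 bp. The 46 summits average 1 per 115 bp of the common gene length of 5269 bp. Closeness of this kind follows at least in part from that number of summits, and how much of it does was not tested. The stretch with most copies ran from 2087 to 2173 bp after the start and held 1 summit each of YBL005W-B, YBR012W-B, YGR038C-B, YJR029W, YPR137C-B and YOL103W-B.

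Stretches with 4 copies lay at 1685 to 1782 bp (YJR029W, YPR158W-B, YML045W and YOR142W-B) and at 4103 to 4172 bp (YBR012W-B, YPL257W-B, YDR098C-B and YOL103W-B). The tightest with 3 copies was at 1335 to 1340 bp, where YDR316W-B, YLR157C-B and YLR227W-B had summits within 5 bp of each other. The widest part without a summit was the 498 bp from 3543 to 4041 bp, and the first summit lay 424 bp after the start. These stretches were chosen after their values were seen and were not tested. The 6 summits of Ty2 were a median of 352 bp from the nearest in another copy, and 0 lay within 50 bp.

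Most of the Gag-Pol genes lie within 1000 bp of a tRNA gene, but their Sir2 summits do not. The nearest tRNA gene was 287 to 68186 bp from the edge of a gene, with a median of 530 bp. Of the 41 genes, 36 lay upstream of it, as read from the strand letter of the tRNA gene's name. The 36 include genes as far away as YHR214C-B (68186 bp) and YLR157C-B (27612 bp), for which the side says little. Shares of all protein-coding genes near or upstream of a tRNA gene are not given here, so these counts have no background. Within 500 bp of a tRNA gene there were 19 Gag-Pol genes and within 1000 bp there were 28, and all 28 lay upstream of that tRNA gene. The tRNA gene was beyond the start of the element in 18 of these and beyond its end in 10. So the elements stood in either direction relative to the tRNA gene. Sir2 summits inside the genes were 1111 to 71049 bp from the nearest tRNA gene, with a median of 3709 bp, and 0 of 57 came within 1000 bp. Their place inside the gene is part of this distance.

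Of the 28 tRNA genes that were nearest to an element and within 1000 bp of it, 0 had a Sir2 summit within 500 bp. Of all 275 nuclear tRNA genes, these 28 included, 0.727% had one. Hst1 summits lay within 500 bp of 7 of the 28 (25%), against 34.2% of all tRNA genes. At this distance the elements' tRNA genes were thus not above the background in either list.

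Sir2 coverage was set against the distance to a tRNA gene, with no test. Of the 19 within 500 bp, 13 had a Sir2 summit (68.4%) and 7.55% of their length was covered; of the 22 farther away, 19 had one (86.4%) and 10.2% was covered. In Ty1 alone these were 11 of 15 and 16 of 16 genes, and all 4 Ty1 genes without a summit were 287 to 458 bp from a tRNA gene. In Ty2 they were 2 of 4 and 3 of 6. The Ty1 genes more than 1000 bp from a tRNA gene, 9 in number, all had a summit, and 16.0% of their length was covered, against 9.08% in the 22 nearer ones. In Ty2 the order was the other way at this distance, with 2.14% covered in the 4 farther genes and 2.90% in the 6 nearer ones.

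The range within each group was wide. YDR365W-B, with the greatest coverage, was 5175 bp from a tRNA gene, YPR158W-B (26.7%) 6922 bp and YJR029W (23.5%) 34201 bp. YML045W (23.0%) and YGR038C-B (22.4%) were only 493 and 456 bp away, and YLR157C-B, at 27612 bp, had 4.95%. Coverage near and far from tRNA genes therefore overlapped. Distances were taken to tRNA genes only, so other genes transcribed by RNA polymerase III were not counted. For YPR158W-B, YDR210W-B and YGR161W-B, another element lay between the gene and its nearest tRNA gene, within 1000 bp of the latter. Genes far by this measure are thus not shown to stand apart from such sites.

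**Figure D4:**
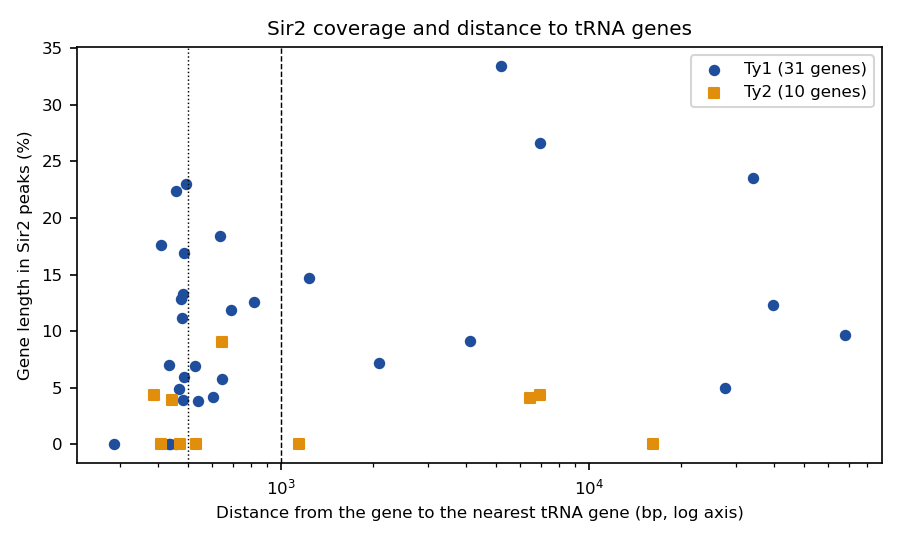
Share of each Gag-Pol gene covered by Sir2 peaks (vertical axis, %) against its distance to the nearest tRNA gene (horizontal log axis, bp), for 31 Ty1 (blue circles) and 10 Ty2 genes (orange squares). Dotted and dashed lines mark 500 and 1000 bp; genes with no Sir2 peak sit at 0, and coverage of 20% or more occurs on both sides of the lines.

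Some elements lie close together. YJR027W and YJR029W on X are 316 bp apart and had 2 and 3 Sir2 summits. YPR158W-B and YPR158C-D on XVI, 1009 bp apart, had 3 and 1. A Ty1 gene stands beside a Ty2 gene at 3 sites: YGR161C-D and YGR161W-B (696 bp apart) had 1 summit each, as did YDR210C-D and YDR210W-B (1234 bp apart), and YDR261C-D had 2 while its neighbour YDR261W-B (759 bp apart) had none. With genes within 5000 bp counted as 1 site, which was chosen with the values known, 28 of 36 sites had a Sir2 summit.

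Hst1 summits lay inside 2 of the Gag-Pol genes and within 1000 bp of 9. Inside, YBL005W-B (II, 221330 to 226598) had an Hst1 summit 395 bp after its start, with a fold of 1.70 (rank 632 of 692), and YMR045C had one at 427 bp, with a fold of 1.95 (rank 475). Both lay in the first 10% of the gene, where Sir2 had 2 summits in all of Ty1, in YOR142W-B and the short YLR035C-A. YBL005W-B also had a Sir2 peak, II, 222932 to 223518, at 2087 bp from the start, and YMR045C had none. None of the 57 Sir2 peaks in these genes overlapped an Hst1 peak.

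In the 1000 bp on either side of the genes there were 9 Hst1 summits, 7 before the start and 2 after the end, at 9 different genes. These are 22.0% of the 41 genes, near the 17.7% of all nuclear protein-coding genes with an Hst1 summit in such flanks. Of the 9, 7 lay within 76 bp of a tRNA gene, and Hst1 summits within 500 bp were, as given above, no more frequent at these elements' tRNA genes than at all tRNA genes. They flank the Ty1 genes YDR210C-D (fold 1.74, in the tRNA gene), YDR316W-B (2.65), YNL054W-B (2.48) and YPR137C-B (2.01) and the Ty2 genes YCL019W (1.65, in the tRNA gene), YDR034C-D (1.58) and YOR343W-B (2.34). The other 2 were over 20000 bp from a tRNA gene: 1 at X, 470876 to 472517, before YJR027W, with a fold of 7.92, and 1 at XII, 940932 to 941345, before YLR410W-B, with a fold of 3.51. Hst1 folds beside the elements thus went higher than inside them. In the same flanks Sir2 had a summit at 1 gene (2.44%, against 1.93% of all genes), 495 bp before YLR157C-B (XII, 481913 to 482283, fold 2.10). Its −log10 q of 14.7 was above the highest inside the Gag-Pol genes, 10.9.

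The other retrotransposons of the annotation, Ty3 and Ty4, had no peaks in their Gag-Pol genes. YGR109W-B (VII, 707610 to 712254) and YIL082W-A (IX, 205635 to 210132) of Ty3 and YHL009W-B (VIII, 85909 to 91318) and YJL113W (X, 198678 to 203325) of Ty4 had 0 summits and 0 bp covered in the Sir2, Hst1 and mock IP lists. They are 4498 to 5410 bp long and 431 to 1293 bp from a tRNA gene. The gene of 5410 bp is about as long as the full Ty1 and Ty2 genes, and the other 3, up to 4648 bp, are shorter. Each family has 2 such genes, too few to set against Ty1 or Ty2.

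Host genes with known roles in the Ty1 life cycle had summits about as often as all genes or less, which is no result about these genes. With a summit inside the gene or in the 500 bp upstream of it, Sir2 had 0 of 28, against 1.4% of all genes, and Hst1 had 2 of 28, against 10.2%. Both belonged to the 11 genes that act in Ty1 transcription. GCR1, an activator of glycolytic genes and of Ty elements, had an upstream Hst1 summit with a fold of 7.52 (XVI, 411367 to 412299), and SPT8, a subunit of the SAGA coactivator, had one with a fold of 2.01 (XII, 253080 to 253544). The uncalled genes named here were chosen with their values known. Neither list had a summit at TEC1 or STE12, the pair of activators that bind within Ty1. There was also none at the 4 cofactor genes (DBR1, XRN1, LSM1 and BUD22), the 8 genes that restrict Ty1, among them FUS3 and RTT109, or the 5 genes of RNA polymerase III and its initiation factor, among them RPC40, whose product binds the Ty1 integrase.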

How the data were processed

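ChIP-seq peak lists of a Sir2-HA IP, an Hst1-HA IP and a mock IP were used. Reads were processed with BWA and MACS2 on sacCer3, per the submitters' processing notes. The sources used here do not give versions, cutoffs, the control of each call or whether the 2 technical replicates of the design text were pooled. The deposited files give per peak a fold (a ratio), −log10 p and −log10 q, and a score, which in all 159 Sir2 peaks equalled the −log10 q times 10 without its decimals. Fold was ranked within a list only.

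Starts were converted to 1-based positions, and the summit was the start plus the deposited offset. Genes came from a RefSeq table of assembly R64; all 41 names matched. Chromosome ends were base 1 and the last base that a gene or peak reaches. A gene was called where a summit lay inside it. Intervals are exact Clopper-Pearson at 95% and cover counting error only. Named genes were all Ty2 genes, those without a Sir2 summit, those met by an Hst1 peak, the 10 of highest Sir2 fold, those with most summits, the Ty3 and Ty4 genes and called host genes; the remaining Ty1 genes were named once, by range, and uncalled host genes were added with their values known. The genes and lists were chosen with earlier results of these data known. Python 3.11.15 with pandas 2.3.3 and SciPy 1.17.1 was used. Summits planted in 200 genes were checked to be recovered. No sequences of the genes were analysed here.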

Additional observations from a re-analysis of the deposited data

How the results depend on the processing

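The Sir2 count depends on weak peaks. Among peaks with −log10 q from 10 upward, Sir2 summits remained in 1 Ty1 gene, 0 Ty2 genes and 1 gene in all, covering 0.167% of Ty1 and 0.126% of all lengths, with the one Ty1 position at 77.8%. In the strongest 50% of the list the counts were 3, 0 and 3. At a fold of at least 2 they were 22 Ty1 genes, 1 Ty2 gene and 23 in all, and the median Ty1 position was 56.7%. Hst1 summits were in 0 Ty1 genes, and 0 in all, under the same limit on −log10 q, in the strongest 50%, at a fold of at least 2, and with the list cut to the Sir2 length, which was chosen with the values known. With genes widened by 400 bp on each side to take in the terminal repeats, Hst1 had 4 Ty1 and 2 Ty2 genes, 6 in all. Within 250 bp of a tRNA gene there were 0 Ty1, 0 Ty2 and 0 genes in all. With the nearest edge of the gene in place of the summit, each gene counted once per Sir2 summit, the median distance to a tRNA gene was 634 bp in Ty1, 645 bp in Ty2 and 634 bp in all. Ty2 coverage, 2.59% with all peaks, was 0.414% at a fold of at least 2 and 0% under the limit on −log10 q, falls smaller than the SD between its genes. In all, 75 of 103 alternative values stayed within 1.5 times the count, within 1 SD between genes for coverage, or within the 95% interval of the median. These include values that could hardly move, such as mock IP counts of 0 and Sir2 counts with lists cut to the Sir2 length. The total is therefore no measure of how stable the Sir2 count is. No paired analysis was possible because each IP has 1 list and no replicate numbers. Depth is unknown, so a gene without a peak is not shown to be unbound.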
